A study of Mus musculus with 19 samples.

Results

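The cytosolic ribosomal protein genes were described in mouse MII oocytes and 2cell embryos from females of 2 labelled genotypes of CPEB3, an RNA-binding protein that controls the polyadenylation and translation of stored mRNAs. Members were the rows of type protein_coding whose symbols are Rpl or Rps with a number (and an optional a, l, x, al or l1), plus Rplp0, Rplp1, Rplp2 and Rpsa. The rule found 83 of the 25891 genes in the table, of which 52 belong to the large 60S subunit and 31 to the small 40S subunit. It read names alone, not expression.

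The table holds 19 libraries in 4 groups. Superovulated BL6 females aged 6 to 10 weeks received 5 IU PMSG and 5 IU hCG. Sample titles read KO and Het, written here as CPEB3-/- and CPEB3+/-, the names the study uses for its sequenced groups. Its methods give the knockout as LoxP/LoxP with ZP3-Cre+/-, a Cre recombinase driven by an oocyte promoter. They give LoxP/- with ZP3-Cre+/- for a control called wild type, and name no alleles for CPEB3+/-. If CPEB3+/- is that control, both maternal genotypes carried the floxed Cpeb3 allele and Cre, and CPEB3+/- is heterozygous. A 2cell embryo carries the label of its mother, such females having been mated in the study with wild-type males. There were 5 MII libraries of each genotype, taken from unfertilised eggs matured in vivo, and 5 CPEB3+/- and 4 CPEB3-/- 2cell libraries, collected 37 h after hCG from zygotes cultured in M16. Each library was made from 5 cells, and nothing says that libraries of a group come from separate females, so p values measure the spread between these libraries, which may be technical.

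Cytosolic ribosomes join a small subunit, which decodes the mRNA, to a large subunit, which forms peptide bonds and holds the exit tunnel. Most of their mRNAs begin with a 5' terminal oligopyrimidine tract (TOP), a C followed by more C or T, through which mTOR and LARP1 adjust their translation to growth. Full-grown oocytes stop transcribing and live on stored RNA and ribosomes, and the mouse embryo starts its own transcription in earnest at the 2cell stage. Ribosomal protein genes have left many processed pseudogenes in mammalian genomes, copies of the spliced mRNA that were pasted back elsewhere.

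Promoter entries in RefSeq (GRCm38.p6) were found for 63 of the 83 genes. In 13 of the 63 (20.6%) the sequence from the annotated start on read C and then at least 4 letters each C or T, on the gene's own strand, whatever stood before it. This held for 3.01% of 27025 genes with a promoter. Within the window from 10 bases before to 15 bases after the start, the motif was present in 61.9% of members and in 34.4% of all genes. The windows below run from 10 bases before the start and show the genes on which the later results turn, with the pyrimidines that run on from the start in capitals. Rps6 (chr4:86857348-86857377, minus strand) encodes the 40S protein phosphorylated by S6 kinase. Rpl35 (chr2:39005112-39005141, minus strand) was higher in MII libraries labelled CPEB3-/-. Rpl28 (chr7:4792955-4792984, plus strand) was lower in 2cell libraries with that label. Rps15a (chr7:118116128-118116157, minus strand) fell from the MII to the 2cell stage. Rpl41 (chr10:128549149-128549178, minus strand) and Rpl10l (chr12:66284382-66284411, minus strand) have no such run at the RefSeq start, so they are shown without capitals.
Rps6: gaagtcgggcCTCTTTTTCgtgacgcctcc
Rpl35: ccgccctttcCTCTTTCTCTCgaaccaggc
Rpl28: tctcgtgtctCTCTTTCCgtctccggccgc
Rps15a: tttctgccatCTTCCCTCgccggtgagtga
Rpl41: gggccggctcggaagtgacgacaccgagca
Rpl10l: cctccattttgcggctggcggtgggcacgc
An absent match says only that these letters do not stand at the annotated start.

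Most of the signal that resembles ribosomal protein mRNA stood in pseudogene rows, not in the rows of the genes themselves. A copy was counted where a pseudogene transcript matched at least 50% of a gene's coding sequence at 80% identity or more. Of 1736 such copies in GENCODE vM21, 604 have a row in the table, and they belong to 76 of the 83 genes. For 54 of these 76 genes the copy with the highest mean FPKM was at least 99% identical to the gene's coding sequence, and for 18 it was 100% identical. Coding stretches of 3 genes and of their highest copies show how alike they are, with a mismatch in capitals. The stretches are from Rps6 (chr4:86856830-86856859, minus strand) and Rps6-ps4 (chr2:75191787-75191816, minus strand), from Rpl13 (chr8:123102659-123102688, plus strand) and Gm12918 (chr4:10848420-10848449, plus strand), and from Rplp0 (chr5:115560741-115560770, plus strand) and Gm8730 (chr8:102865715-102865744, minus strand), all on GRCm38.
Rps6: ctgaacatctccttccccgccaccggctgt
Rps6-ps4: ctgaacatctccttccccgccaccggctgt
Rpl13: atggcgcccagccggaatggcatgatactg
Gm12918: atggcgcccagccggaatggcatgatactg
Rplp0: caacttttggatgattaTccaaaatgcttc
Gm8730: caacttttggatgattaCccaaaatgcttc
The Rplp0 stretch differs from its copy by T18C, counted from 1 at the 5' end with the gene's base first. The Rps6 row held 0.651 ± 0.153 FPKM (SD, n = 5) in CPEB3+/- MII oocytes, while Rps6-ps4 held 16.9 FPKM on average. In CPEB3+/- 2cell embryos the same rows held 13.7 ± 1.99 (SD, n = 5) and 223 FPKM. Gm12918 stood at 106 FPKM in CPEB3+/- MII oocytes and its parent Rpl13 at 2.02 FPKM. How reads that match several loci were assigned is not stated in the sources used here. Called genes of each comparison are therefore counted by the gene's own row and by the sum of that row and its copies, which was added after the values had been seen. Values of single genes, and results by place in the ribosome and by TOP run, are for the own row unless copies are named. The 7 genes without a copy in the table by these criteria included Rpl10l, Rpl39l, Rpl3l, Rpl41, Rpl8 and Rps3.

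**Figure D1:**
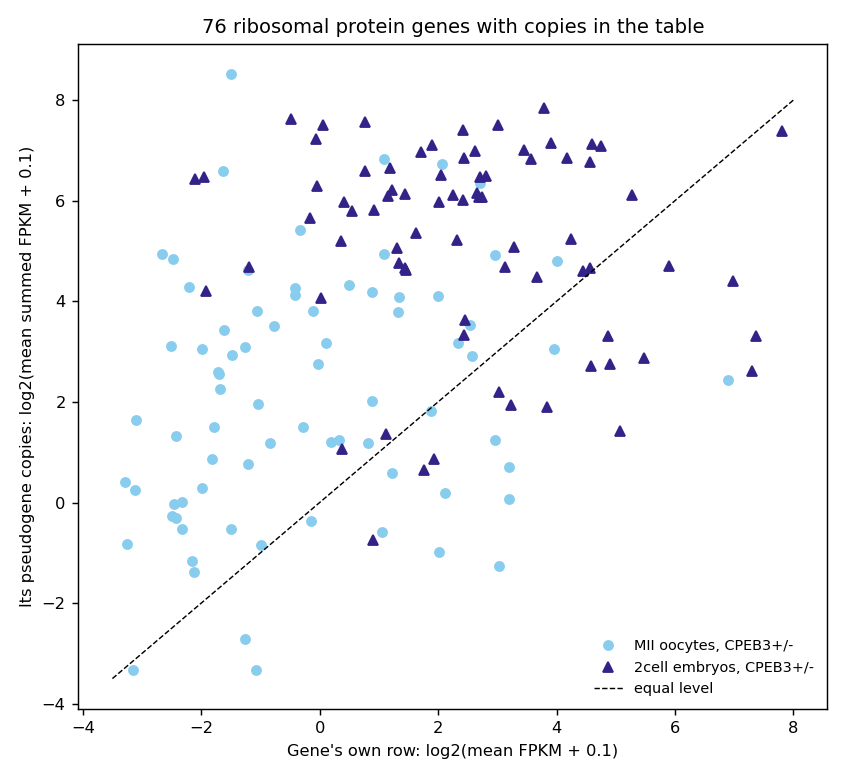
Mean FPKM of each gene's own row (x) against the mean summed FPKM of its pseudogene copies (y), both as log2(FPKM + 0.1), for the 76 genes with copies in the table, in CPEB3+/- MII oocytes (circles) and 2cell embryos (triangles). The dashed line marks equal levels, and 61 genes in MII oocytes and 60 in 2cell embryos lie above it.

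The marker genes followed the stage labels. Oocyte markers (12 genes) summed to 2080 to 3310 FPKM in MII and 333 to 695 FPKM in 2cell libraries, and 2cell markers (11 genes) to 38.3 to 62.8 and 671 to 1320 FPKM. Markers of cumulus and granulosa cells (13 genes) summed to at most 0.634 FPKM in MII and 1.44 FPKM in 2cell libraries. Cpeb3 was not lower in the libraries labelled CPEB3-/-, at 0.0755 ± 0.024 against 0.162 ± 0.0325 FPKM in MII oocytes (SD, n = 5 each) and 0.0303 ± 0.0149 against 0.0555 ± 0.0129 FPKM in 2cell embryos (SD, n = 5 and 4), and a value over the whole gene does not show single exons. The labels on genotype are therefore used as labels throughout. The depth, estimated only roughly from the steps between low values, was 17.2 to 23.7 M fragments per library. The 2cell library CPEB3+/- A stood apart, with the lowest sum of the 83 genes among the 2cell libraries, and counts that rest on it are given with and without it.

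Ribosomal protein RNA made up a smaller share of the MII than of the 2cell transcriptome, by own row and with copies added. The 83 rows summed to 280 ± 27.0 FPKM (SD, n = 5) in CPEB3+/- MII oocytes and to 365 ± 39.8 FPKM (SD, n = 5) in MII oocytes labelled CPEB3-/-. Their sums were 1755 ± 301 FPKM (SD, n = 5) in CPEB3+/- 2cell embryos and 1624 ± 158 FPKM (SD, n = 4) in 2cell embryos labelled CPEB3-/-. By library the MII sums ran from 255 to 319 FPKM in CPEB3+/- libraries and from 306 to 407 FPKM in those labelled CPEB3-/-, so the groups overlapped at their edges. The 2cell sums ran from 1278 to 2019 FPKM and from 1440 to 1793 FPKM, and the second range lay inside the first.

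The copies added 1327 ± 216 and 1801 ± 406 FPKM (SD, n = 5 each) in the MII groups, CPEB3+/- first, and 5079 ± 877 (SD, n = 5) and 4348 ± 490 FPKM (SD, n = 4) in the 2cell groups. The genes' own rows together carried 17.6% of the gene-plus-copies sum in CPEB3+/- MII oocytes and 25.7% in CPEB3+/- 2cell embryos. As a share of all FPKM in a library, the 83 genes took 0.326 ± 0.0297% and 0.449 ± 0.0405% in the MII groups (SD, n = 5 each). In the 2cell groups they took 1.19 ± 0.219% (SD, n = 5) and 1.34 ± 0.0973% (SD, n = 4). With copies added the shares were 1.87 ± 0.275% and 2.66 ± 0.511% in the MII groups (SD, n = 5 each). They were 4.62 ± 0.861% (SD, n = 5) and 4.94 ± 0.427% (SD, n = 4) in the 2cell groups. The order of the 2cell genotypes was thus opposite for the sum and for the share, since the libraries labelled CPEB3-/- had lower FPKM totals over all genes (120800 against 148500 FPKM on average).

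**Figure D2:**
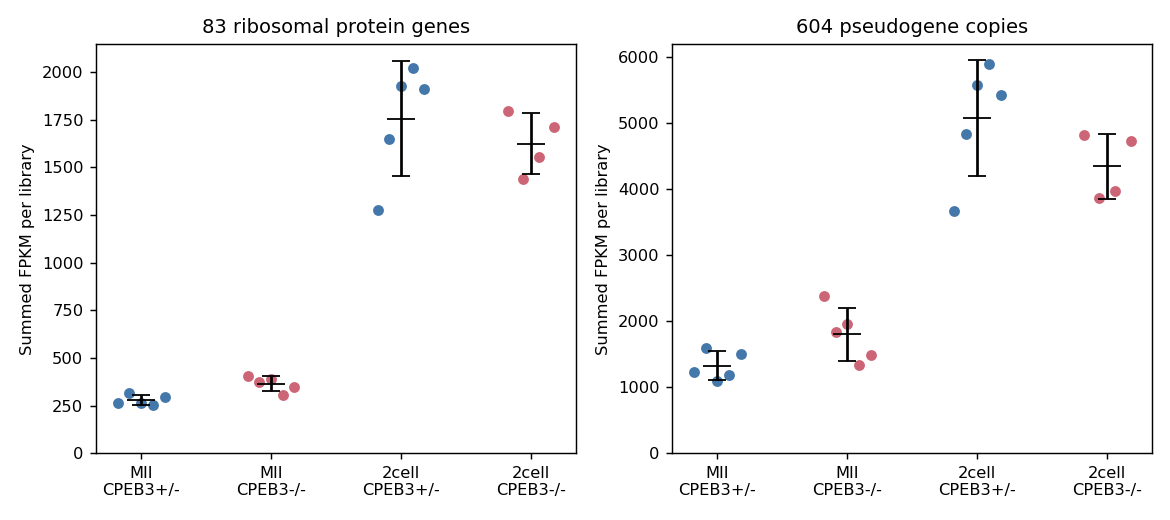
Summed FPKM per library of the 83 ribosomal protein genes (left) and of their 604 pseudogene copies in the table (right). Points are libraries, bars are means with SD, and both axes start at 0. The 2cell libraries lie above the MII libraries in both panels, the lowest 2cell library of the left panel at 1278 FPKM.

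Levels were very uneven among the genes. In CPEB3+/- MII oocytes the median gene stood at 0.489 FPKM, 51 of 83 genes were below 1 FPKM, and the 5 highest (Rps27l, Rplp0, Rpl4, Rpl32 and Rplp2) held 60.3% of the sum. In CPEB3+/- 2cell embryos the median was 5.36 FPKM, 72 genes reached 1 FPKM, and the 5 highest, led by Rpl41, Rplp0, Rps27l and Rpl36al, held 54.6%. Over all 19 libraries the highest means were those of Rps27l at 157, Rpl41 at 146, Rplp0 at 105 and Rpl36al at 72.6 FPKM. The lowest were Rpl3 at 0.0908, Rpl11 at 0.107, Rpl5 at 0.165, Rpl3l at 0.179 and Rpl9 at 0.234 FPKM. Rpl3 and Rpl11 encode obligatory core proteins of the large subunit, and their copies held 18.4 FPKM on average for Rpl3 in CPEB3+/- 2cell embryos. The highest copy of Rpl11, Gm10288, held 28.0 FPKM in CPEB3+/- MII oocytes, where the Rpl11 row held 0.0584 FPKM.

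By own row several paralogues stood above their core partners, which held with copies added for Rps27l and Rpl36al at both stages and for Rpl39l in MII oocytes, but not for Rpl10l and Rpl3l in 2cell embryos or for Rpl7l1 in CPEB3+/- MII oocytes, whose median share went from 57.2 to 30.2%. Rps27l, a p53-inducible paralogue of the 40S gene Rps27, held 105 to 128 FPKM in the 5 CPEB3+/- MII libraries, while Rps27 held at most 0.0621 FPKM there and was listed at or near 0 in the other 4 libraries. Rpl36al, an autosomal paralogue of the X-linked Rpl36a, took 95.7 to 99.3% of the pair's FPKM in CPEB3+/- MII oocytes and 98.1 to 98.9% in CPEB3+/- 2cell embryos. With copies of both partners added, its share was 75.3 to 89.8% and 80.5 to 86.1%. Rpl39l, best known from male germ cells, took 86.7 to 91.7% of its pair with Rpl39 in CPEB3+/- MII oocytes but 33.8 to 48.2% in CPEB3+/- 2cell embryos. Rpl10l, a testis-expressed retrogene of the X-linked Rpl10, was near 0 in oocytes and took 98.3 to 98.9% of the pair's own rows in CPEB3+/- 2cell embryos. With the copies of Rpl10 added, which held 149 FPKM there on average, its share was 22.7 to 35.1%. Rpl22l1 and Rpl7l1 were the smaller partners in CPEB3+/- 2cell embryos, with medians of 34.2% and 28.2%. Rpl3l took a median of 73.1% of its pair with Rpl3 there and 51.7% in 2cell libraries labelled CPEB3-/-, both genes being under 1 FPKM, and medians of 2.48% and 1.76% with the copies of Rpl3 added.

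From MII oocytes to 2cell embryos nearly the whole set rose, in both subunits. In CPEB3+/- libraries 77 of 83 genes (92.8%) were called higher at the 2cell stage and 2 lower, where a call needs an adjusted p under 0.05 and a change above 1.5-fold. Over all 15786 genes tested, 38.0% were called higher and 28.5% lower. The median log2 fold change was 2.59 for the 83 genes and 0.20 for all genes. In libraries labelled CPEB3-/- 71 genes were called higher and 1 lower, against 38.2% and 27.0% of all genes, with medians of 2.41 and 0.21. The 60S and 40S genes had medians of 2.53 and 3.30 in CPEB3+/- libraries.

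**Figure D3:**
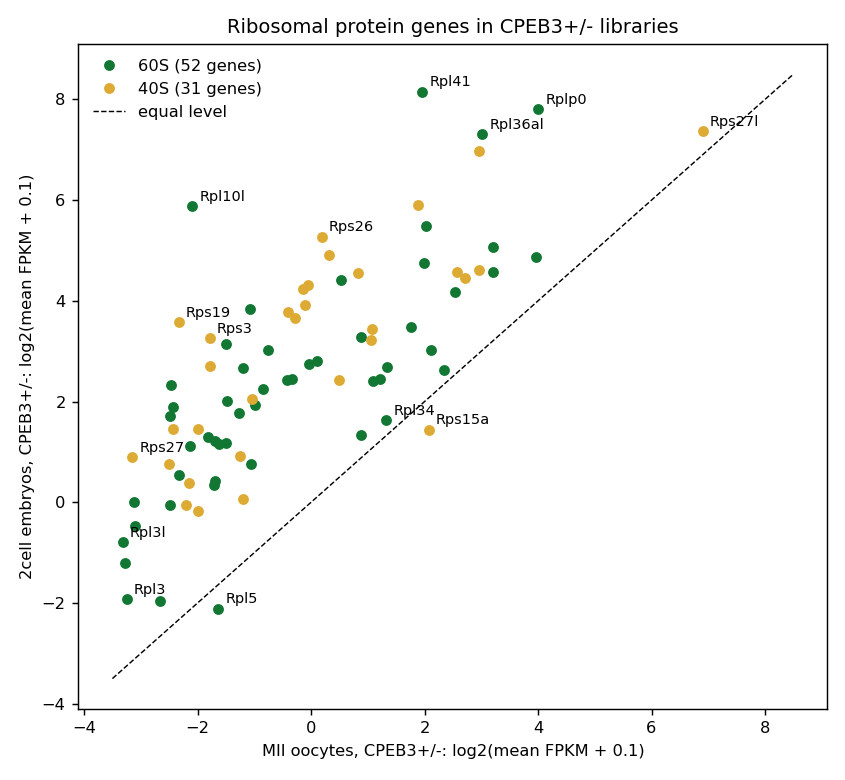
Mean FPKM of each of the 83 genes in CPEB3+/- MII oocytes (x) and CPEB3+/- 2cell embryos (y), both as log2(FPKM + 0.1), with 60S genes in green and 40S genes in yellow. The dashed line marks equal levels. Of the 83 genes, 81 had a higher mean in 2cell embryos, and Rps15a and Rpl5 lie below the line.

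Rpl10l changed most, from 0.0478, 0.234, 0, 0.238 and 0.15 FPKM in CPEB3+/- MII libraries A to E to 52.4, 48.4, 70.8, 61.9 and 60.7 FPKM in CPEB3+/- 2cell libraries A to E. The groups were far apart, and the log2 fold change was 7.98 ± 0.40 (SE; limma adjusted p = 2.45e-12). Rpl41 encodes a very short basic protein of the large subunit. It went from 3.81, 6.17, 1.84, 2.95 and 4.21 FPKM to 127, 232, 345, 377 and 343 FPKM, a log2 fold change of 5.95 ± 0.28 (SE; limma adjusted p = 1.28e-12). Library A was the lowest 2cell value by a wide margin, and still stood far above every oocyte value. Rps19, the gene most often mutated in Diamond-Blackfan anemia, rose from 0.0985 ± 0.0591 to 11.8 ± 1.79 FPKM (SD, n = 5 each), by 5.79 on the log2 scale. Rps3 and Rps26, at the mRNA entry and exit of the 40S subunit, rose by 4.91 and 4.80. Rpl10l, Rpl41 and Rps3 are among the 7 genes without a copy in the table. Rpl3l, a striated-muscle paralogue of Rpl3, was listed at 0 in all 5 CPEB3+/- MII libraries and at 0.31 to 0.586 FPKM in CPEB3+/- 2cell libraries.

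Rps15a and Rpl5 were the genes called lower. Rps15a, a 40S protein, held 3.53 to 4.72 FPKM in CPEB3+/- MII and 1.99 to 3.13 FPKM in CPEB3+/- 2cell libraries, without overlap, and fell by 0.88 on the log2 scale (limma adjusted p = 1.67e-06). It fell by 1.41 in libraries labelled CPEB3-/-. Rpl5, which with Rpl11 and 5S rRNA forms the particle that binds Mdm2, went from 0.221 ± 0.0734 to 0.132 ± 0.0179 FPKM (SD, n = 5 each), a fall of 0.60 on the log2 scale (limma adjusted p = 0.00502). In libraries labelled CPEB3-/- the Rpl5 estimate was -0.56 (limma adjusted p = 0.0123), short of 1.5-fold. With its copies, which held 96.1 FPKM in CPEB3+/- MII oocytes, Rpl5 gave -0.39 and was not called in CPEB3+/- libraries, and fell by 1.10 in libraries labelled CPEB3-/-. By own row Rpl14, Rpl15, Rpl34 and Rps27l were the 4 genes not called in CPEB3+/- libraries. With copies summed, Rpl15 rose by 3.05 and Rpl34 by 1.29 and both were called, while Rpl14 and Rps27l were not. Rps27l was the highest gene in oocytes, at 119 ± 9.05 FPKM (SD, n = 5), and stood at 166 ± 29.4 FPKM (SD, n = 5) in 2cell embryos, with a log2 fold change of 0.21 ± 0.14 (SE; limma adjusted p = 0.162).

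With copies summed, 74 genes were called higher and 4 lower in CPEB3+/- libraries, against 37.5% and 28.4% of all genes. In libraries labelled CPEB3-/- 73 were higher and 5 lower, against 38.0% and 27.1%. Of the 79 genes called by their own row in CPEB3+/- libraries, 76 were also called with copies summed. The genes without a copy in the table could not disagree. Rpl17, a protein at the exit tunnel, rose by 2.48 in its own row, while its copies fell from 366 ± 50.4 to 101 ± 9.09 FPKM (SD, n = 5 each) and the sum fell by 2.02 on the log2 scale. Rpl37 turned in the same manner, its sum falling by 1.47. Alpha-globin RNA moved with the stage too: Hba-a1 and Hba-a2 summed to at most 0.428 FPKM in MII and 46.2 to 146 FPKM in 2cell libraries. They are the only 2 of 6 listed blood markers with a row, and Hbb-bs, Hbb-bt, Alas2 and Ptprc have none. The part of blood cells in the result was not tested.

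Other genes of the translation machinery were compared between the stages in CPEB3+/- libraries, where 38.0% of all genes were called higher and 28.5% lower, with a median of 0.20. Of 67 ribosome biogenesis factors, 31 were called higher and 20 lower, with a median of 0.42. Of 12 elongation and termination factors 5 were higher and 0 lower. Among 25 other mRNAs with a known TOP, 17 were higher and 4 lower, with a median of 0.84. Of the ribosomal proteins outside the name rule, Rps3a1 rose by 3.03, while Rack1, the scaffold protein of the 40S head, fell by 2.36 on the log2 scale, from 15.8 ± 1.34 to 3.59 ± 0.554 FPKM (SD, n = 5 each). The 13 members with the TOP run at the annotated start had a median of 1.95, and the other 50 members with a promoter entry had 2.64, a difference given as a description.

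In MII oocytes the genes that differed by genotype were all higher in the libraries labelled CPEB3-/-. Of 72 genes that passed the filter on low values, 8 (11.1%) were called higher and 0 lower, against 5.59% and 7.29% of 10515 genes tested. They were Rpl41, Rplp1, Rpl26, Rpl35, Rps23, Rpl6, Rps4x and Rpl13a, with log2 fold changes from 0.59 to 1.58. At an unadjusted p under 0.05, 28 of the 72 would have passed in either direction. The share of all genes at that threshold is not given here, so this count has nothing to be read against. The median log2 fold change was 0.28 over the 72 genes and 0.01 over all genes, with medians of 0.27 for 60S and 0.28 for 40S genes, and 53 of the 72 estimates were above 0. The median of the 72 genes was 0.15 with the GC trend removed and 0.11 with a pseudocount of 1. The other 11 genes were too low to test. Without CPEB3+/- library A, C or D or the library A labelled CPEB3-/-, the number called was 5, 5, 4 and 5. Over all genes these fits called 1011, 954, 1049 and 1094, beside 1355 with every library.

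Rpl41 held 3.81, 6.17, 1.84, 2.95 and 4.21 FPKM in CPEB3+/- libraries A to E and 12.2, 14.1, 14.5, 7.86 and 10.2 FPKM in libraries A to E labelled CPEB3-/-. The lowest value labelled CPEB3-/- exceeded the highest CPEB3+/- value, and the log2 fold change was 1.58 ± 0.26 (SE; limma adjusted p = 0.0029). Rplp1 encodes an acidic protein of the ribosomal stalk, which recruits translation factors. It read 3.37, 5.34, 2.66, 4.92 and 3.49 FPKM against 11.1, 7.88, 11.8, 6.48 and 6.66 FPKM, again without overlap, with a log2 fold change of 1.04 ± 0.20 (SE; limma adjusted p = 0.00662). Rpl26, beside the exit tunnel, read 0.385, 0.599, 0.491, 0.412 and 0.408 FPKM against 1.9, 0.975, 1.21, 0.632 and 0.876 FPKM, a log2 fold change of 0.97 ± 0.22 (SE; limma adjusted p = 0.0133). Rpl6, a 60S surface protein, read 0.854 to 1.21 against 1.24 to 2.63 FPKM without overlap.

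The remaining calls had overlapping libraries. Rpl35, also at the exit tunnel, read 1.32 to 3.4 against 3.2 to 6.48 FPKM and rose by 0.91. Rps23, a protein of the decoding centre, read 0.545 to 1.09 against 0.955 to 2.87 FPKM and rose by 0.89. Rps4x, the X-linked 40S gene, and Rpl13a rose by 0.62 and 0.59. Of 10 fits that each left out a library, Rps23 and Rps4x were called in 4 each and Rpl13a in 5. In all, 5 of the 72 genes (6.94%) had groups that did not overlap, each with the libraries labelled CPEB3-/- above, against 16.3% of the genes tested. The 5 included Rps27l, at 105 to 128 against 141 to 168 FPKM, which was not called (log2 fold change 0.24 ± 0.10, SE). Among the stalk genes, Rplp2 read 9.10 ± 1.47 against 12.9 ± 2.04 FPKM (SD, n = 5 each; limma adjusted p = 0.0567) and Rplp0 16.0 ± 1.46 against 20.7 ± 3.48 FPKM (SD, n = 5 each; limma adjusted p = 0.0898). Rps6 and Rpsa, the latter also known as a laminin receptor, had estimates of 0.37 ± 0.25 and 0.55 ± 0.24 (SE) and were not called. The lowest estimates, none of them called, were those of Rpl7l1 at -0.56, Rps9 at -0.49 and Rpl32 at -0.37.

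With copies summed, 9 of 81 genes were called higher and 1 lower in MII oocytes, against 5.72% and 7.58% of all genes. Rpl13a, Rpl35, Rpl41 and Rplp1 were called both ways, which is 50% of the calls by own row and 40% of the calls with copies. Rpl41 has no copy in the table, so its sum is its own row and could not disagree. Rpl27a had the second largest change of these sums, 1.54 ± 0.16 (SE; limma adjusted p = 0.000222), although its own row did not pass (estimate -0.26). Its copies held 4.69 ± 0.897 against 15.3 ± 3.57 FPKM (SD, n = 5 each). Rpl23a, too low to test by itself, rose by 1.33 with its copies. Rpl7l1, the paralogue of Rpl7, was the 1 gene called lower, by 0.67 on the log2 scale. Among the 264 copy rows that could be tested singly, 13 were called higher and 4 lower, and rows that share reads are not independent.

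Markers of the next stage moved with genotype in the same oocytes. The 2cell markers summed to 38.3 to 46.0 FPKM in CPEB3+/- MII libraries and 47.2 to 62.8 FPKM in those labelled CPEB3-/-, with Zscan4c, Zscan4d and Zscan4f called higher out of 8 tested. The oocyte markers summed to 3050 to 3310 and 2080 to 2980 FPKM, with Mos called lower. The part of either in the ribosomal protein result was not tested. Beside the 5.59% and 7.29% of all genes called higher and lower, of the 57 ribosome biogenesis factors tested 1 (Tcof1) was called higher and 4 lower, of which Polr1c, a subunit of RNA polymerases I and III, fell by 1.22 and Brix1 by 0.77 on the log2 scale. Eef2, the translocation factor, rose by 0.70, and was the 1 call among 11 elongation factors tested. Among 23 other TOP mRNAs 2 rose, Eef2 among them, and 2 fell (Pabpc1 by 0.82 and Cct4 by 0.77). Among 14 regulators of TOP mRNAs tested, Tsc2 alone was called, higher by 0.69.

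**Figure D4:**
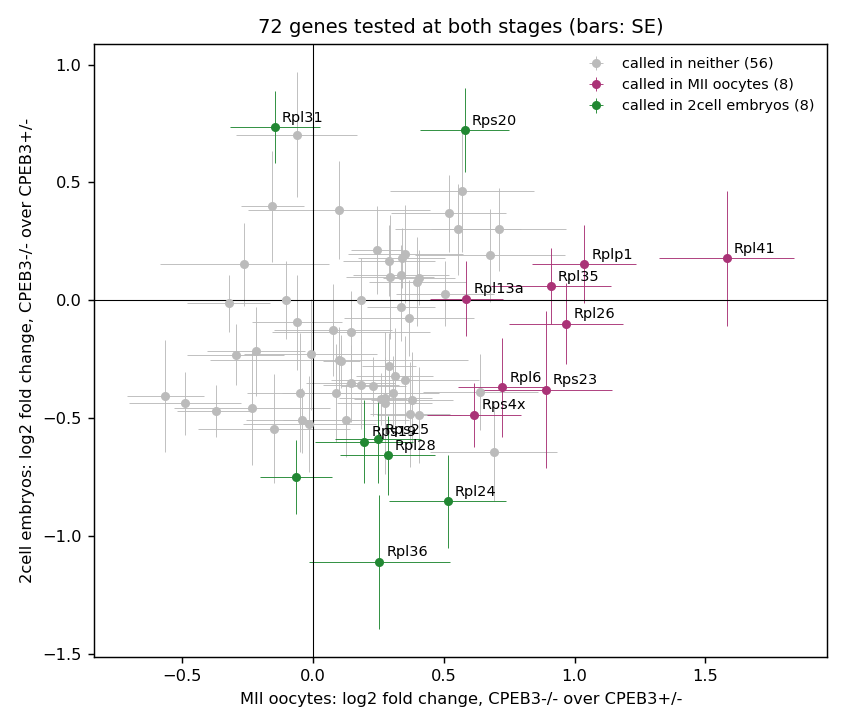
Log2 fold change of libraries labelled CPEB3-/- over CPEB3+/- in MII oocytes (x) and in 2cell embryos (y) for the 72 genes tested at both stages, with SE bars. The 8 genes called in MII oocytes lie to the right, 8 of the 11 genes called in 2cell embryos are shown, and no gene was called at both stages.

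In 2cell embryos 11 genes were called by genotype, most of them lower in the libraries labelled CPEB3-/-. Of 83 genes tested, 3 (3.61%) were called higher and 8 (9.64%) lower, against 8.41% and 9.85% of 14051 genes, so neither share exceeded that of all genes. The median log2 fold change was -0.23 over the 83 genes and -0.01 over all genes, and 52 of the 83 estimates were below 0. The medians were -0.18 for 60S and -0.37 for 40S genes. No gene was called at both stages, which by itself does not show that the stages differ. This direction depends on the scaling: when every library was scaled to its FPKM total, 9 of the 83 genes were called higher and 0 lower, beside 2996 of all 14051 genes called in either direction, and the median of the 83 genes became 0.09 while that of all genes became 0.26.

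Rpl36, a 60S protein, had the largest fall, reading 6.2, 9.67, 7.82, 9.94 and 14.3 FPKM in CPEB3+/- libraries A to E and 4.69, 3.17, 3.34 and 7.46 FPKM in libraries A to D labelled CPEB3-/-. The groups overlapped through library D labelled CPEB3-/-, and the gene fell by 1.11 on the log2 scale (SE 0.29; limma adjusted p = 0.0235). Rpl24, which bridges the subunits, read 2.31, 3.7, 3.83, 4.51 and 3.74 against 2.15, 2.07, 1.46 and 2.4 FPKM, and overlapped only through CPEB3+/- library A. It fell by 0.85 (SE 0.20; limma adjusted p = 0.0157). Rpl28 read 3.51 to 4.34 against 1.88 to 3.1 FPKM without overlap, and fell by 0.66 (limma adjusted p = 0.0227). Rpl9 and Rpl3l fell by 0.86 and 0.81, both from levels under 1 FPKM. Rps19 and Rps25 fell by 0.60 and 0.59. Most omissions of a single library ended the calls of Rpl9, Rpl3l, Rps19 and Rps25, which were kept in 2, 2, 2 and 1 of 9 such fits, and Rpl36 was kept in 4 of 9.

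Rpl10a, a protein of the L1 stalk, was the gene with the largest increase, reading 0.855, 1.96, 1.57, 1.07 and 1.35 against 3.61, 2.91, 2.06 and 4.22 FPKM. Every value labelled CPEB3-/- was above every CPEB3+/- value, and the log2 fold change was 1.13 ± 0.26 (SE; limma adjusted p = 0.015). Rpl31, at the rim of the exit tunnel, read 1.19, 1.34, 1.84, 1.89 and 1.71 against 3.03, 2.53, 2.49 and 3.14 FPKM, a log2 fold change of 0.74 ± 0.15 (SE; limma adjusted p = 0.0103). Rps20, in the head of the 40S subunit, read 2.23 to 3.15 against 3.59 to 6.62 FPKM, also without overlap, and rose by 0.72. Beside these 3 genes, Rpl28, Rpl32 and Rplp0 had all libraries labelled CPEB3-/- below the CPEB3+/- ones, and the 6 genes without overlap compare with 20.0% of all genes. Rplp0 read 197, 199, 225, 254 and 241 against 173, 192, 165 and 161 FPKM, with an estimate of -0.42 ± 0.11 (SE; limma adjusted p = 0.0249), short of 1.5-fold.

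The 3 increases did not hold once copies were added. The sums gave -0.02 for Rpl10a, 0.07 for Rpl31 and 0.17 for Rps20, none of them called, and the copies of Rpl31 alone held 96.6 and 104 FPKM on average. With copies summed, 0 genes were called higher and 9 lower, against 8.64% and 10.2% of all genes. An unadjusted p under 0.05 was reached by 36 of the 83 in either direction, and the share of all genes there is not given. The 9 included Rpl3, Rpl3l, Rpl24, Rpl30, Rps13, Rps24, Rps25 and Rps27a. Called both ways were 4 genes, Rpl24, Rpl3l and Rps25 among them, which is 36.4% of the calls by own row and 44.4% of those with copies. Rpl3l has no copy in the table, so its sum is its own row and could not disagree. Rps24, a further Diamond-Blackfan anemia gene, fell by 0.84 with its copies (SE 0.18; limma adjusted p = 0.012), where its own row gave -0.65 (limma adjusted p = 0.0554). Of the 500 copy rows tested singly, 14 were called higher and 33 lower.

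**Figure D5:**
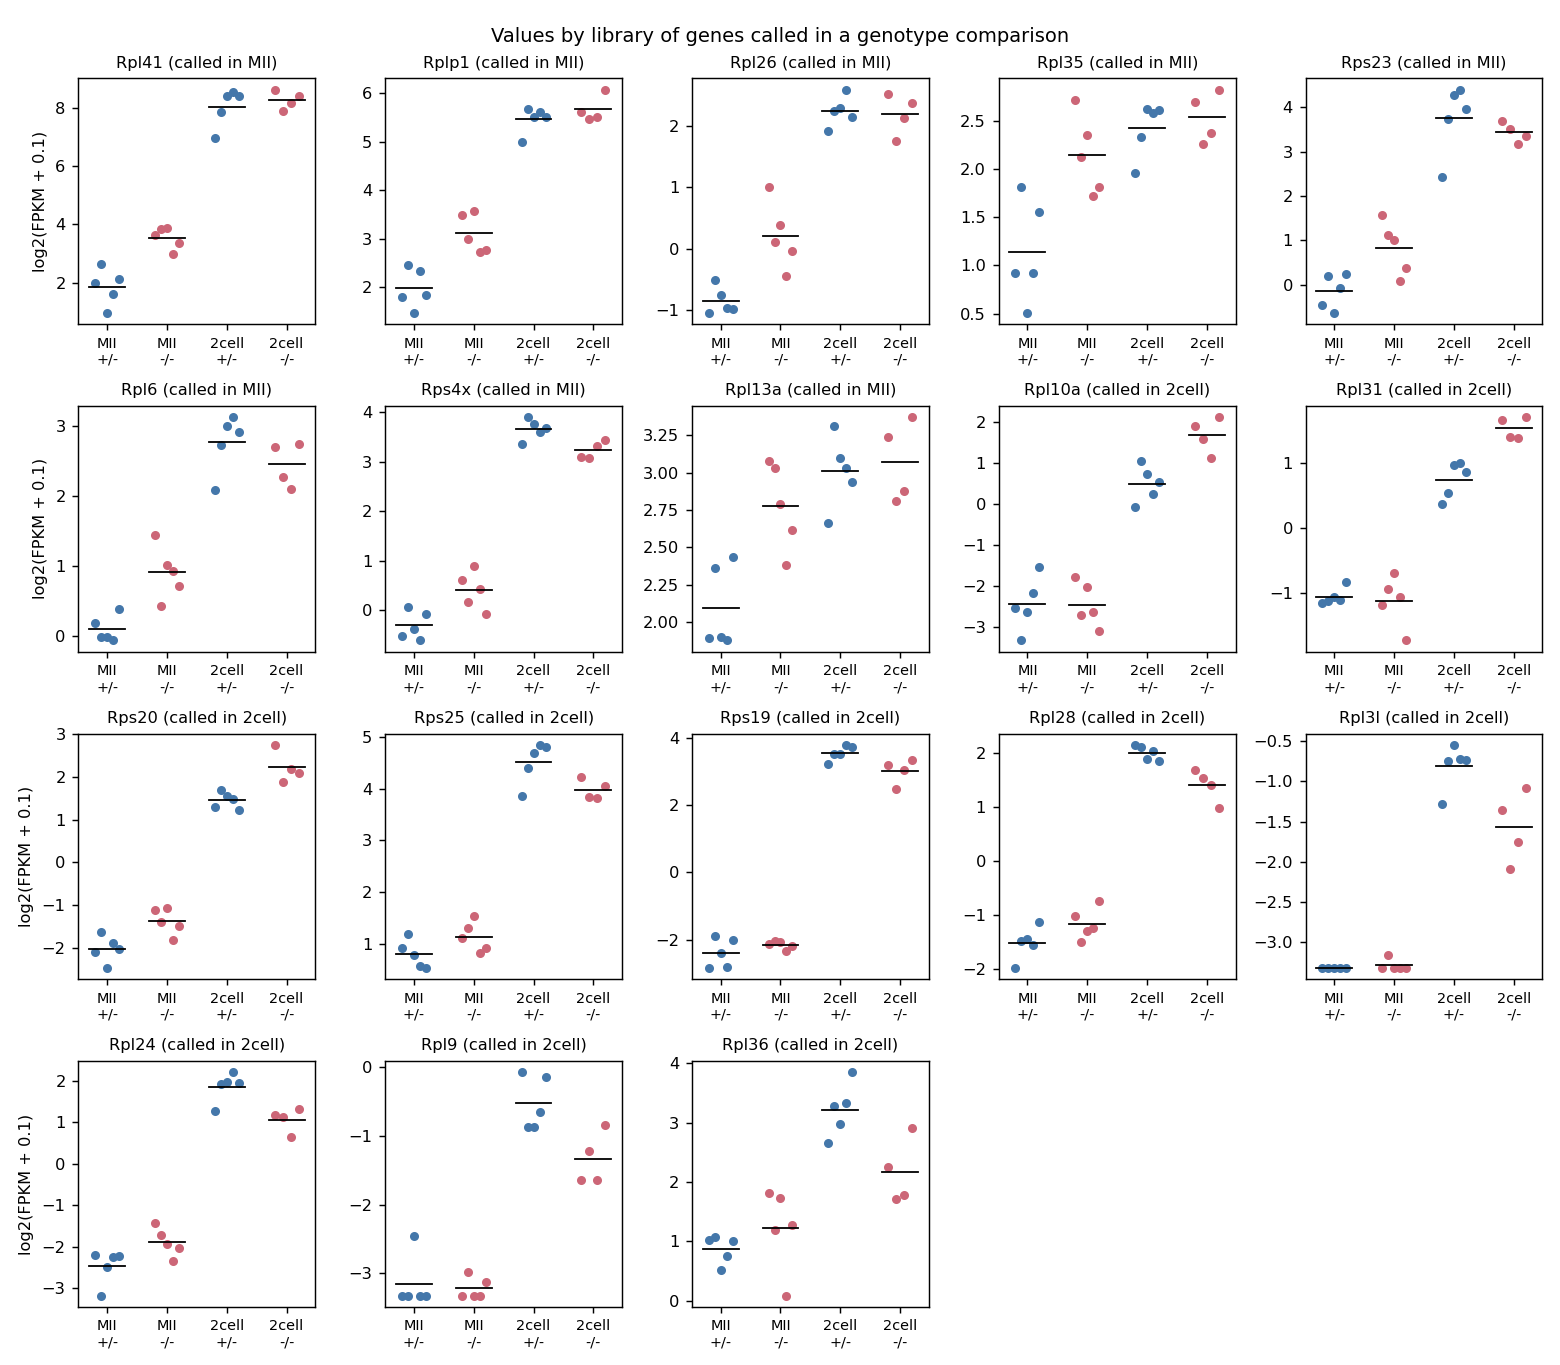
FPKM by library, as log2(FPKM + 0.1), of the 8 genes called in MII oocytes and 10 of the 11 called in 2cell embryos, for libraries labelled CPEB3+/- (blue) and CPEB3-/- (red) of both stages, with lines at the means of the log2 values. Each panel has its own y axis. Rpl41, Rplp1, Rpl26 and Rpl6 do not overlap by genotype in MII oocytes, nor do Rpl10a, Rpl31, Rps20 and Rpl28 in 2cell embryos.

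The 2cell count moved with single libraries. Without library A, the lowest of the CPEB3+/- 2cell libraries for Rpl41, Rps23 and Rpl24, 16 genes were called, 3 higher and 13 lower, beside 2510 of all 13733 genes. Leaving out CPEB3+/- library B, D or E gave 7, 6 and 6 calls, and leaving out library A, B or C of those labelled CPEB3-/- gave 5, 6 and 6. Over all genes these fits called 2108, 2060 and 1831, and 2002, 1931 and 1951, beside 2565 of 14051 with every library. The 2cell markers summed to 689 to 1320 FPKM in CPEB3+/- 2cell libraries and 671 to 883 FPKM in those labelled CPEB3-/-, and Zscan4d was called lower. The part of this in the ribosomal protein result was not tested. Beside the 8.41% and 9.85% of all genes called higher and lower, among 66 ribosome biogenesis factors tested 0 were called higher and 17 lower, with a median of -0.33. Nob1, an endonuclease that trims 18S rRNA, fell by 1.76 on the log2 scale, the 60S export adaptor Nmd3 by 1.26 and Brix1 by 1.11. Among 12 chaperones and importers of ribosomal proteins Ipo7 and Tnpo1 were lower, by 0.91 and 0.61. Of 12 elongation factors 2 were higher, Eef2k, the kinase that inhibits Eef2, by 1.85 and Eef2 itself by 0.75. Among 25 other TOP mRNAs 2 were higher and 6 lower, with Vim lower by 1.12 and Eif3e by 1.10. Of 17 regulators of TOP mRNAs tested, Tsc2 was higher by 1.44 and 4 were lower, among them Ssb by 1.06 and Eif4e by 1.04.

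The genotype difference passed the test of a change between the stages for 10 genes, of which Rpl3l had almost no signal in MII oocytes. The interaction of stage and genotype, the 2cell difference minus the MII difference, was called above 0 for 1 gene and below 0 for 9 of 83, against 3.71% and 3.93% of 15786 genes. Its median was -0.37 over the 83 genes and 0.04 over all genes, with 64 of 83 estimates below 0. The interaction uses the libraries of both genotype comparisons, so it is not independent of them. By own row, 32 of the 72 genes tested at both stages had estimates above 0 in MII oocytes and below 0 in 2cell embryos, and 20 were above 0 at both. Without CPEB3+/- 2cell library A the interaction was called for 22 of the 83 genes and for 1494 of all 15597, beside 1206 of 15786 with that library. It was called for 4 to 6 without CPEB3+/- MII library A or D, MII library C labelled CPEB3-/-, CPEB3+/- 2cell library C, D or E, or 2cell library B or C labelled CPEB3-/-. Those fits called 919 to 1305 of all genes.

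Rpl24 and Rps24 had the most negative called values, -1.35 ± 0.33 and -1.29 ± 0.34 (SE; limma adjusted p = 0.0166 and 0.0267). Rps4x at -1.06, Rpl6 at -1.05 and Rpl26 at -1.03 combined a call in MII oocytes with an estimate below 0 in 2cell embryos. Rpl13 at -0.99, Rpl28 at -0.91, Rpl3l at -0.81 and Rplp0 at -0.63 completed the group. Rpl3l was listed at 0 in all 5 CPEB3+/- MII libraries and in 4 of 5 labelled CPEB3-/-, too low to test there. Its interaction therefore only restates its 2cell difference of -0.81. Of 19 fits that each left out a library, Rpl6, Rpl26, Rpl13 and Rpl3l were called in 9, 7, 6 and 4. Rpl31 alone was above 0, at 0.92 ± 0.24 (SE; limma adjusted p = 0.0244). With copies summed, 0 genes were above 0 and 12 below, against 3.77% and 4.09% of all genes. Rpl24, Rpl3l, Rps24 and Rps4x were called both ways, of which Rpl3l has no copy and could not disagree. Rpl31 turned to -0.28 and was not called. Rpl41 was close to the threshold, at -1.36 ± 0.41 (SE; limma adjusted p = 0.0518).

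Grouped by place in the ribosome and counted by own row, the genes are to be read against the shares of all genes called, which were 5.59% higher and 7.29% lower in MII oocytes and 8.41% higher and 9.85% lower in 2cell embryos. With the stage, 38.0% of all genes were called higher in CPEB3+/- libraries, with a median of 0.20, and 38.2% in those labelled CPEB3-/-. Of the 9 proteins along the mRNA channel of the 40S subunit, 0 were called by genotype at either stage, while Rps7 was called higher in MII oocytes once its copies were added, by 0.585 on the log2 scale. By own row all 9 rose at the 2cell stage in libraries of both genotype labels, with a median of 3.75 in CPEB3+/- libraries. Of the 10 proteins around the exit tunnel, 2 of 8 tested were called in MII oocytes (Rpl26 and Rpl35) and 1 of 10 in 2cell embryos (Rpl31), all higher. By own row all 10 rose with the stage in CPEB3+/- libraries and 8 did so in libraries labelled CPEB3-/-, where Rpl4 and Rpl35 were not called, and the sum of Rpl17 with its copies fell as given above. The stalk genes Rplp0, Rplp1, Rplp2 and Rpl12 rose with the stage by a median of 2.59 in CPEB3+/- libraries. By own row, of 16 Diamond-Blackfan anemia genes, Rpl26 was called in MII oocytes, and Rps19 and Rpl31 were called in opposite directions in 2cell embryos. The 13 members with a TOP run at the start had a median genotype difference of 0.29 in MII oocytes, where 11 were tested, and of -0.08 in 2cell embryos, beside 0.26 and -0.26 for the members whose start lacks it.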

How the data were processed

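RNA of 5 cells per library was amplified with SMART-seq chemistry, which primes from poly(A), so the measure is polyadenylated RNA. The authors trimmed reads with Trim Galore 0.4.1, aligned them to GRCm38 with HISAT2 2.0.5 and deposited FPKM values computed in SeqMonk. The values are FPKM although the table is called raw counts: only 0.00203% are whole numbers above 0. Handling of multimapping reads and of strand is not given in the sources used here, so a gene cannot be told apart from near-identical copies or antisense genes. The methods state quadruplicates, while the labels give 5, 5, 5 and 4 libraries.

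Groups followed the labels. Libraries were brought to a common scale with a trimmed mean of their log ratios, and limma 3.58.1 (with trend, in R 4.3.3) was run on log2(FPKM + 0.1), with p values adjusted by the Benjamini-Hochberg method over all genes tested. A gene was tested where it reached 0.1 FPKM in a number of libraries equal to the size of the smaller group. Because 0.1 was added before taking log2, fold changes of weakly expressed genes come out too small. Genes were called at adjusted p under 0.05 where the change also exceeded 1.5-fold. Each genotype comparison used its own libraries, and the stage and interaction contrasts came from 1 fit of all 19. Copies were found with blastn 2.17.0 against GENCODE vM21, and summed with their gene as an alternative chosen after seeing the data. The fits were tested on simulated data.

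The members and gene lists were chosen with earlier results of these data known. Named were the 5 largest called rises and falls per comparison, the 5 highest and 5 lowest genes, paralogues, Rps6, Rpsa, Rplp0, Rplp1, Rplp2, Rpl41, members past the interaction threshold and the 3 largest calls of each other list. Rps23, Rpl6, Rps4x, Rpl13a, the genes not called between stages and those with notable copies were named after their values were seen. Samples with the same letter did not deviate together. Results for a few genes are not reported here, and they are not labelled in the figures.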

Additional observations from a re-analysis of the deposited data

Results flagged for a closer look

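In 13 of 187 groups of values, each holding a gene in the libraries of a group, a library stood apart from the others by Dixon's test at the 95% level, which chance alone passes in about 5% of groups. In CPEB3+/- MII oocytes these were Rpl31 in library E (0.462 FPKM), Rpl7 and Rpsa in library B (0.425 and 0.186 FPKM), and Rpl9 and Rps27 in library C (0.0823 and 0.0621 FPKM). In MII oocytes labelled CPEB3-/- they were Rpl36a and Rps24 in library A (0.681 and 4.36 FPKM), Rpl3l in library B (0.0122 FPKM) and Rpl5 in library D (0.311 FPKM). In CPEB3+/- 2cell embryos Rplp1 and Rplp2 stood apart in library A (31.8 and 25.6 FPKM, the lowest of the group). In 2cell embryos labelled CPEB3-/- Rpl5 and Rps27 did so in library D (0.183 and 5.74 FPKM).

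For 10 genes the genotype difference of the 2cell stage minus that of the MII stage passed the interaction test (limma, adjusted p under 0.05 and over 1.5-fold). On the log2 scale it was -1.35 for Rpl24, -1.29 for Rps24, -1.06 for Rps4x, -1.05 for Rpl6, -1.03 for Rpl26, -0.99 for Rpl13, -0.91 for Rpl28, -0.81 for Rpl3l, -0.63 for Rplp0 and 0.92 for Rpl31. Rpl3l was listed at 0 in all 5 CPEB3+/- MII libraries and in 4 of 5 labelled CPEB3-/-, so its value only restates its 2cell difference.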

How the results depend on the processing

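The stage rise held under every setting tried: 79 calls in CPEB3+/- and 72 in libraries labelled CPEB3-/- became 28 and 26 where a mean of at least 5 FPKM left 30 genes to test, and otherwise lay between 71 and 79 and between 65 and 78. Over all genes, 1556 and 1491 of 1983 were called at that mean, and otherwise 5292 to 10949 and 5269 to 10930. The 8 calls in MII oocytes became 13 when scaled to the FPKM total, 3 with a pseudocount of 1 or a mean of at least 5 FPKM, 5 without a filter, and 4 to 11 without single libraries. Over all genes, 1355 calls became 1589 when so scaled, 481 with a pseudocount of 1, 1032 of 23046 without a filter, and 954 to 1539 without single libraries. A mean of at least 5 FPKM left only 14 members to test, and 308 of 1656 genes were called. The 11 calls in 2cell embryos became 7 for values as deposited (3 higher, 4 lower) or without a filter, 4 with a pseudocount of 1, 1 with a mean of at least 5 FPKM, 17 without the fold threshold, and 5 to 16 without single libraries. Over all genes, 2565 calls became 2509 as deposited, 2008 of 25748 without a filter, 1178 with a pseudocount of 1, and 1825 to 2563 without single libraries. A mean of at least 5 FPKM left 43 members to test, and 586 of 2041 genes were called. No count of all genes is given without the fold threshold. Scaled to the FPKM total, 9 were called, all higher, beside 2996 of 14051 genes called in either direction. The median turned from -0.232 to 0.091, and the ratio of summed FPKM, 0.925, was 1.13 as a share of that total. The 10 interaction calls became 3 under that scaling, 2 with a mean of at least 5 FPKM, 16 with the GC trend removed, and 4 to 22 without single libraries. Over all genes, 1206 calls became 1221 under that scaling, 1194 with the GC trend removed, and 919 to 1494 without single libraries. A mean of at least 5 FPKM left 30 members to test, and 281 of 1983 genes were called. With copies summed, Rpl10a in 2cell embryos turned to -0.017 (limma adjusted p = 0.965) and the interaction of Rpl31 to -0.28 (limma adjusted p = 0.46). The causes were not tested.

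With the letters as a replicate block, 5 genes were called in MII oocytes, 0 in 2cell embryos and 3 by the interaction, beside 824 of 10515, 414 of 14051 and 827 of 15786 genes in all. Deviations of same-letter libraries correlated at -0.175 to 0.123 over 5 MII pairs and -0.07 to 0.035 over 4 2cell pairs, and 1 pair of each stage correlated best with its own letter, so the letters were not taken as pairs.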
